A study of Mus musculus with 16 samples.

Results

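The T cell antigen receptor complex and the first signalling proteins downstream of it are described here through 9 genes: the CD3 chains Cd3e, Cd3d, Cd3g and Cd247, the co-receptor Cd4, the tyrosine kinases Lck and Zap70, and the adaptors Lat and Lcp2. They were taken by symbol from a table of 23479 genes, and all 9 were among the 18430 genes abundant enough to be tested. The samples were CD4 T cells isolated from mouse spleen by immunomagnetic negative selection, a method that binds and removes the other cells and leaves the T cells untouched. Recipients, all C57BL/6, had been given a transplant of lymphoma cells of the Eu-Myc model, a lymphoma of B cells in which the Myc oncogene is the driver. Spleens were collected 7 days (7 libraries) or 14 days (4 libraries) afterwards. Controls were 5 libraries from C57BL/6 mice that bore no tumour. Their sample titles give day 0, so no control was labelled as matched in day to either tumour group. Each library was taken as 1 mouse, as the design text counts them, and library numbers are those of the sample titles.

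The receptor recognises a peptide held by an MHC molecule through its alpha and beta chains, which have short tails and cannot signal alone. Signal passes through the CD3 chains: CD4 brings the kinase Lck to the receptor, Lck phosphorylates the CD3 tails, Zap70 docks there, and Zap70 then phosphorylates the adaptors LAT and SLP-76 (encoded by Lcp2), on which the downstream enzymes assemble. T cells keep transcribing these genes at rest, and surface receptor number is also set by internalisation and recycling, which RNA levels do not report.

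Levels are given in CPM, a gene's reads as a share of all reads on genes brought to the same total in every library, after TMM scaling, which adjusts each library for its composition. The libraries held 14493764 to 27340070 gene counts, so the member with the fewest reads, Cd3d, still had 1850 in its lowest library, and counting error was at most 2.32% for any of the 9. The label was checked against markers. All 12 genes of a CD4 T cell list, 4 of them members, were found, with a summed level of 3849 to 7250.4 CPM, while Cd8a, which marks CD8 T cells, did not exceed 3.03 CPM, Cd8b1 had 5.44 to 16.5 CPM and the 8 B cell markers summed to 7.05 to 73.8 CPM. The genes of the antigen receptor's own constant regions were looked for under 5 symbols and 0 were found, so the alpha and beta chains were not analysed here.

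Control libraries 1 and 2 stood apart from controls 3 to 5, and the members' comparisons with the controls, and the calls among other pathway genes, are therefore given with and without them. Of the 5 controls, library 2 was the lowest and library 1 the second lowest for all 9 genes. Control 1 had 71.9% to 93.3% and control 2 had 42.7% to 59.2% of the mean of controls 3 to 5, depending on the gene. Most lists of markers of other cells, and that of division, were higher in the same libraries. The 10 neutrophil markers summed to 873 and 2545 CPM in controls 1 and 2 against 19.7 to 52.1 CPM in controls 3 to 5, the 7 macrophage and monocyte markers found to 221 and 581 against 8.89 to 48.2 CPM, and the 8 dividing cell markers to 1796 and 4139.7 against 281 to 478 CPM. No gene of these 3 lists was at 0 in every library. Sums of the plasma cell (656 and 591 against 117 to 359.8 CPM), dendritic cell (27.4 and 42.6 against 7.09 to 15.4 CPM) and erythroid lists (54.8 and 165 against 2.88 to 9.42 CPM, with 5 of 8 genes at 0 in every library) were also higher in controls 1 and 2, as were those of natural killer cells (60.1 and 42.9 against 32.8 to 40.7 CPM, with 2 of 6 genes at 0 in every library). The 2 CD8 T cell markers were lower there (13.4 and 8.72 against 16.4 to 17.3 CPM), and the gamma delta T cell (5.09 and 1.81 against 1.98 to 3.76 CPM) and B cell sums (73.8 and 36.1 against 10.01 to 47.7 CPM) were mixed. Genes of the Y chromosome summed to 352 to 433 CPM in 5 libraries (controls 1 and 2, numbers 6 and 7 of day 7, number 4 of day 14) and to at most 3.55 CPM elsewhere. In bulk RNA, fewer T cells in a sample and less of a transcript per T cell cannot be told apart, and the part of these other cells in the values below was not tested.

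The 3 CD3 genes Cd3e, Cd3d and Cd3g lie side by side on mouse chromosome 9. In GENCODE's annotation of GRCm38, Cd3g spans chr9:44969572-44980431 on the minus strand, Cd3d spans chr9:44981786-44987339 on the plus strand and Cd3e spans chr9:44998740-45009627 on the minus strand. The start sites of Cd3g and Cd3d point away from each other across 1355 bases, and those of Cd3d and Cd3e are 27825 bases apart. Their upstream sequences are shown because Cd3d and Cd3g were the members with the lowest day 14 levels relative to the other groups, and that of Lcp2 because its level relative to Cd3e was the one that separated day 14 from the controls. Each is the 250 bases before the start site, from RefSeq windows of GRCm38.p6, printed 5′ to 3′ on the gene's strand, with AGGAAG or its reverse complement CTTCCT, a core sequence bound by ETS family factors, in capitals. The Cd3g window is chr9:44980432-44980681 (minus strand), the Cd3d window chr9:44981536-44981785 (plus strand), the Cd3e window chr9:45009612-45009861 (minus strand) and the Lcp2 window chr11:34046678-34046927 (plus strand).
Cd3g: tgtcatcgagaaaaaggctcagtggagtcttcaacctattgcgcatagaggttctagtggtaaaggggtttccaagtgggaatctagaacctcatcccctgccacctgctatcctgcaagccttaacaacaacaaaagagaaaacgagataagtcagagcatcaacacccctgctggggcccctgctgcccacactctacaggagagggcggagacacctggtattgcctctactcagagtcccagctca
Cd3d: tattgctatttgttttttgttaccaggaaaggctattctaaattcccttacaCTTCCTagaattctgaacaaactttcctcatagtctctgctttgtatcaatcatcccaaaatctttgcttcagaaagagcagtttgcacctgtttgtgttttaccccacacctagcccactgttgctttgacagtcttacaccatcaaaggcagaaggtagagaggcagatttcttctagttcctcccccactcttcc
Cd3e: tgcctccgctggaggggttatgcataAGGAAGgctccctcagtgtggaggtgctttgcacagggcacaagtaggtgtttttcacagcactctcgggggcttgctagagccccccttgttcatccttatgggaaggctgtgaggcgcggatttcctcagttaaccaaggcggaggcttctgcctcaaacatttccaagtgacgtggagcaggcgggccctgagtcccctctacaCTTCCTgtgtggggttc
Lcp2: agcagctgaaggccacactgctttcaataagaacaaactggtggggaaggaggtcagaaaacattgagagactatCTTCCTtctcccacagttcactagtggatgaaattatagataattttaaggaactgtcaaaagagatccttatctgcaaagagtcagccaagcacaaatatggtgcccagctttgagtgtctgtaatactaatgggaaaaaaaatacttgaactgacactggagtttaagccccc
The Cd3e window held 2 matches, starting 224 and 17 bases upstream, Cd3d held 1 at 198 bases, Lcp2 held 1 at 175 bases, and Cd3g held none. RefSeq gave 11 windows for 8 of the 9 genes, and 9 of these 11 held a match on either strand, against 29.5% of all 32851 mouse windows of the same length. A second core sequence, TGTGGT or its reverse complement ACCACA, bound by RUNX factors, was in 2 of the 11 windows (1 of Lck and 1 of Zap70), against 14% of all windows. Lck and Zap70 each gave more than 1 window, so the 11 are not independent. This Zap70 window is counted for both core sequences. The bases after its start site, chr1:36764515, were not found in a GENCODE transcript of the gene. All of these are matches of letters and do not show binding.

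The CD3 epsilon gene Cd3e, whose protein pairs with both the delta and the gamma chain, had 1435, 880.4, 1599, 1453 and 1562 CPM in control libraries 1 to 5. At day 7 the 7 libraries ran from 1085 to 1875 CPM with a median of 1392 CPM, and at day 14 the 4 libraries had 762, 1497, 1266 and 992 CPM. The groups overlapped throughout, and the lowest of all 16 libraries was day 14 library 1. The 5 controls averaged 1386 ± 291 CPM (mean ± SD, here and below), the 7 day 7 libraries 1447 ± 267 CPM and the 4 day 14 libraries 1129 ± 320 CPM. The log2 change was 0.06 ± 0.18 (SE) at day 7 and -0.30 ± 0.20 at day 14 against control, and -0.36 ± 0.19 at day 14 against day 7 (edgeR's quasi-likelihood test, Benjamini-Hochberg adjusted p = 0.884, 0.385 and 0.403).

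Cd3d, the delta chain, had 159, 109, 212, 218 and 209.7 CPM in the 5 controls. It ran from 160.0 to 259 CPM at day 7, with a median of 209 CPM, and had 117, 192, 134 and 112 CPM at day 14. Day 14 library 2 alone among the day 14 libraries reached the day 7 range, and the other 3 lay below every day 7 library and below controls 1, 3, 4 and 5. The means were 181 ± 46.9, 208 ± 32.7 and 139 ± 36.6 CPM in controls, day 7 and day 14. Log2 changes were 0.20 ± 0.17 and -0.39 ± 0.20 against control, and -0.59 ± 0.19 at day 14 against day 7 (edgeR adjusted p = 0.553, 0.244 and 0.132).

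Cd3g, the gamma chain, showed the same order of groups. Control libraries 1 to 5 had 412, 229, 524, 525 and 558 CPM, and the day 7 libraries ran from 369 to 598 CPM with a median of 499 CPM. Day 14 libraries 1 to 4 had 270.3, 403, 378 and 267 CPM. All 4 lay below controls 1, 3, 4 and 5 and above control 2, while libraries 2 and 3 lay within the day 7 range. Means were 449.7 ± 135, 477 ± 75.3 and 329.6 ± 71.1 CPM. The day 14 log2 change was -0.45 ± 0.21 against control and -0.53 ± 0.20 against day 7 (edgeR adjusted p = 0.219 and 0.209), and the day 7 change was 0.08 ± 0.18 (adjusted p = 0.846).

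Cd247 encodes the zeta chain, which carries most of the complex's phosphorylation motifs and lies on chromosome 1 (chr1:165788681-165877277, plus strand), away from the other CD3 genes. It had 307, 199, 389.9, 370.1 and 418 CPM in the controls. The day 7 libraries were close together, from 359.6 to 426 CPM with a median of 394 CPM, and the day 14 libraries had 341, 329, 324 and 264 CPM. Every day 14 library lay below every day 7 library, and below controls 3 to 5. The means were 337 ± 87.2, 389.9 ± 24.2 and 314 ± 34.4 CPM. The change from day 7 to day 14 was -0.31 ± 0.15 on the log2 scale (edgeR adjusted p = 0.332), that from control to day 14 was -0.10 ± 0.16 (0.702) and that from control to day 7 was 0.21 ± 0.14 (0.408).

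**Figure D1:**
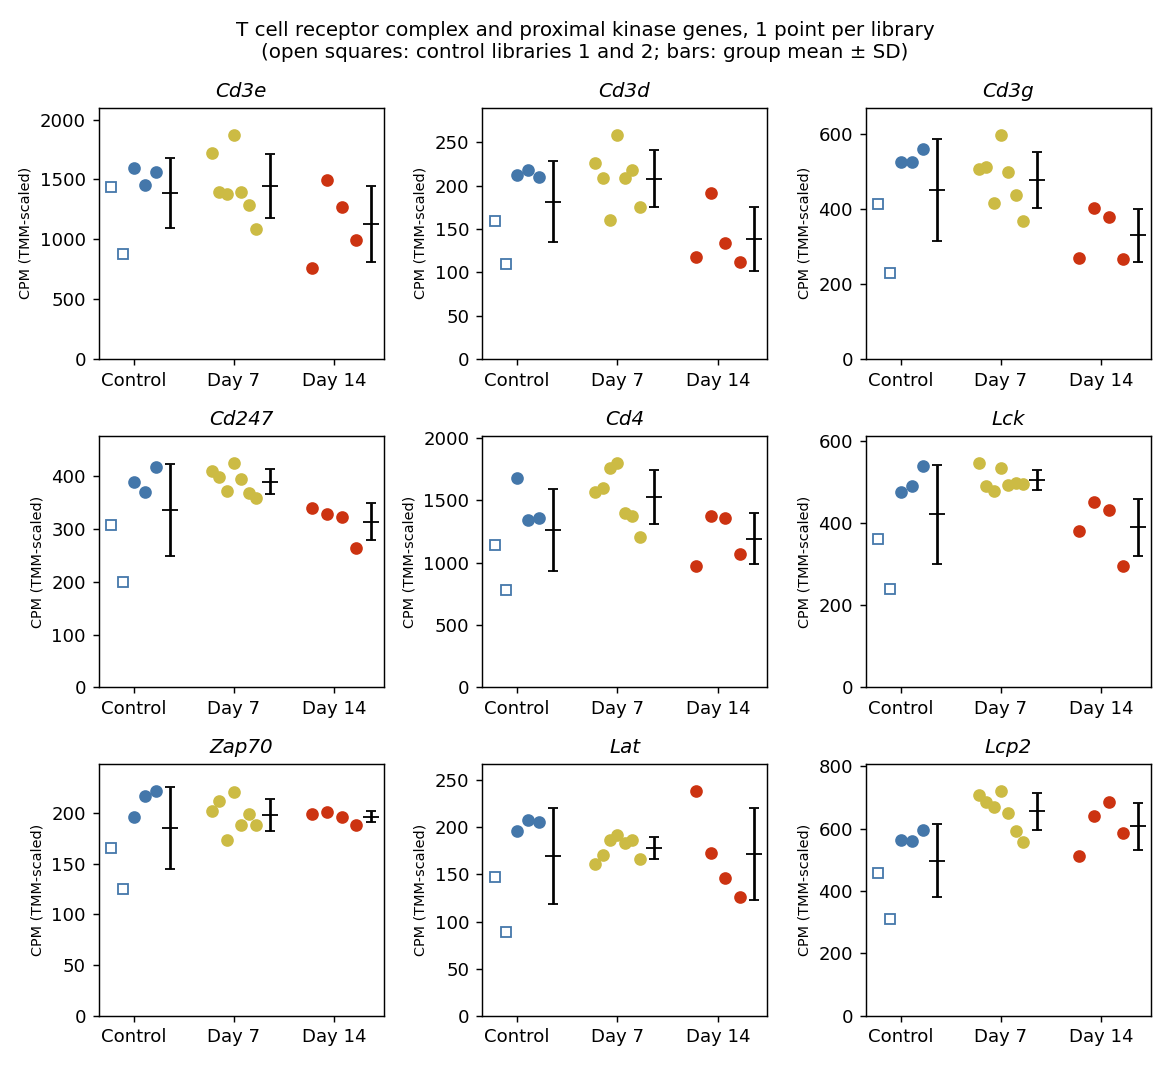
Level of each of the 9 genes in every library (y axis, TMM-scaled CPM, starting at 0; x axis, group), with 1 point per library, open squares for control libraries 1 and 2, and bars for the group mean ± SD. Control 2 is the lowest control in all 9 panels, and the 4 day 14 points of Cd247 and Lck lie below all 7 day 7 points.

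The co-receptor gene Cd4 (chr6:124864692-124888221, minus strand), whose protein binds MHC class II and carries Lck, had 1145, 781, 1678, 1346 and 1356 CPM in the controls. Day 7 libraries ran from 1207 to 1802 CPM with a median of 1571 CPM, and day 14 libraries had 970.0, 1373, 1362 and 1072 CPM. Day 14 libraries 2 and 3 lay within both other groups' ranges, and libraries 1 and 4 lay below every day 7 library. Means were 1261 ± 329, 1531 ± 216 and 1194 ± 204 CPM. The log2 change was 0.28 ± 0.16 at day 7 and -0.08 ± 0.18 at day 14 against control, and -0.36 ± 0.17 between the tumour groups (edgeR adjusted p = 0.337, 0.8 and 0.343).

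Lck, the Src family kinase that starts the cascade (chr4:129548344-129573641, minus strand), had 361, 239, 476, 490.1 and 540.3 CPM in the controls. Day 7 libraries ran from 479.6 to 547 CPM with a median of 496 CPM, and day 14 libraries had 381, 452, 432 and 296 CPM. As for Cd247, all 4 day 14 libraries lay below all 7 day 7 libraries and below controls 3 to 5. The means were 421 ± 121, 505 ± 25.1 and 390.2 ± 69.5 CPM. Log2 changes were 0.26 ± 0.15 and -0.11 ± 0.18 against control and -0.37 ± 0.17 at day 14 against day 7 (edgeR adjusted p = 0.353, 0.709 and 0.3).

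Zap70, the Syk family kinase that docks on phosphorylated CD3 tails (chr1:36761798-36782818, plus strand), had 166, 125, 197, 217 and 222 CPM in the controls. It ran from 174 to 221 CPM at day 7, with a median of 199 CPM, and had 199, 201, 196 and 189 CPM at day 14. The 4 day 14 libraries lay close together, inside the day 7 range. Group means were 185 ± 40.1, 198 ± 15.8 and 196 ± 5.48 CPM. The log2 change from day 7 to day 14 was -0.01 ± 0.12, and against control it was 0.09 ± 0.11 at day 7 and 0.08 ± 0.13 at day 14 (edgeR adjusted p = 0.974, 0.691 and 0.706).

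Lat encodes the membrane scaffold on which the signalling complex forms (chr7:126363824-126369570, minus strand). Its controls had 147, 89.3, 197, 208 and 206 CPM, and its day 7 libraries ran from 162 to 192 CPM with a median of 183 CPM. Its day 14 libraries were spread widely, with 239, 173, 147 and 126 CPM, and held the highest of the 16 libraries (library 1) as well as values below every day 7 library (3 and 4). The means were 169 ± 51.2, 178 ± 11.8 and 171 ± 48.9 CPM. Its log2 changes were 0.07 ± 0.18, 0.02 ± 0.20 and -0.06 ± 0.19 for day 7 against control, day 14 against control and day 14 against day 7 (edgeR adjusted p = 0.862, 0.964 and 0.902).

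Lcp2, the gene of the adaptor SLP-76 (chr11:34046920-34092295, plus strand), was the member with the largest day 7 change. It had 458, 309, 564, 562 and 595 CPM in the controls, and ran from 557 to 720.3 CPM at day 7 with a median of 671 CPM. Of the 7 day 7 libraries, 5 lay above every control, and the day 14 libraries, with 514, 642, 686 and 585 CPM, lay within or above the range of controls 3 to 5 except library 1. Means were 497 ± 117, 655 ± 60.1 and 607 ± 74.5 CPM. The log2 change at day 7 was 0.40 ± 0.14, with an unadjusted p of 0.00922 and an adjusted p of 0.105 in edgeR's test. DESeq2 gave 0.41 and an adjusted p of 0.0397, in a test that called 12% of the genes it adjusted. At day 14 the changes were 0.29 ± 0.15 against control and -0.11 ± 0.15 against day 7 (edgeR adjusted p = 0.275 and 0.748).

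With all 16 libraries, 0 of the 9 genes passed edgeR's quasi-likelihood test at an adjusted p under 0.05 in any of the 3 comparisons. For day 7 against control that test called 0.0109% of the 18430 genes, all of them higher (0.0109%) and 0% lower. At an unadjusted p under 0.05, 1 member was higher (Lcp2), against 8.43% of all genes, and DESeq2 called 1. All 9 log2 changes were positive, from 0.06 to 0.40, with a median of 0.20 against 0.07 over all genes tested. No member's libraries were all above or all below the controls, as were those of 0.988% and 0.982% of all genes.

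For day 14 against control the test called 3.13% of all genes, 1.33% higher and 1.8% lower. Of the members 1 was lower at an unadjusted p under 0.05 (Cd3g), against 11.8% of all genes, and DESeq2 called 0, against 7.56% of the genes it adjusted. The changes were negative for 6 members and positive for Zap70, Lat and Lcp2, with a median of -0.10 against 0.12 over all genes. No member separated from the 5 controls in either direction, as 5.24% of all genes did above them and 2.85% below. For day 14 against day 7, which uses no control library in its contrast, 0.966% of all genes were called, 0.412% higher and 0.553% lower. Here 4 members were lower at an unadjusted p under 0.05 (Cd3d, Cd3g, Lck and Cd247), against 8.27% of all genes, and DESeq2 called 1, Cd3d (log2 change -0.55, adjusted p = 0.0474), against 5.36% of the genes it adjusted. All 9 changes were negative, from -0.59 to -0.01, with a median of -0.36 against 0.12 over all genes. The 2 members whose day 14 libraries all lay below day 7, Cd247 and Lck, compare with 2.78% of all genes, and 1.77% of all genes had day 14 entirely above.

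The scaling moves these directions, since the median change of all genes at day 14 was 0.12 against control under TMM and 0.32 under library totals, and 0.12 and 0.29 against day 7. Under library totals the day 14 changes of Cd247, Cd4 and Lck against control turned positive (0.11, 0.12 and 0.09), as did those of Zap70, Lat and Lcp2 against day 7 (0.15, 0.11 and 0.05). Zap70 against day 7 was also positive under RLE scaling, at 0.03. Taken relative to the all-gene median, the members' changes hardly depended on the scaling. A scaling shifts all genes of a library alike, so this had to be so and does not settle the directions. Under TMM, RLE and library totals, Cd3g lay -0.57, -0.58 and -0.57 from that median at day 14 against control, Cd3d lay -0.51, -0.53 and -0.52, and Cd3e lay -0.41, -0.43 and -0.43.

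Without control libraries 1 and 2, 19144 genes were tested and the CD3 genes Cd3d and Cd3g fell at day 14 in both comparisons. Against the other 3 controls the log2 change was -0.62 ± 0.17 for Cd3d and -0.70 ± 0.16 for Cd3g (edgeR adjusted p = 0.0427 and 0.0235), where the same fit called 2.54% of all genes lower and 2.38% higher. The remaining members did not pass. Cd247 changed by -0.32 ± 0.11 and Lck by -0.37 ± 0.13 (adjusted p = 0.0758 and 0.0806), Cd3e by -0.45 ± 0.20 and Cd4 by -0.29 ± 0.16 (0.149 and 0.227), and Lat by -0.25 ± 0.15 and Zap70 by -0.11 ± 0.10 (0.276 and 0.457). Lcp2 alone had a positive change, 0.08 ± 0.12 (0.659). In 4 members, Cd3d, Cd3g, Cd247 and Lck, every day 14 library lay below controls 3 to 5, against 7.86% of all genes, and 15.2% of all genes lay above. Controls 1 and 2 were the lowest controls for all 9 members, so leaving them out could only favour such a separation. It also lowered the change of every member against control. All genes were not low in these controls, so the 2 figures are not on equal terms. The fit without controls 1 and 2 left no control with Y chromosome transcripts above 3.55 CPM. Day 7 libraries 6 and 7 and day 14 library 4, with 352 to 433 CPM, stayed in. The part of this difference in the changes was not tested. That fit also left out controls with high neutrophil and division markers but kept day 14 library 4, in which both were also high. Cd3d and Cd3g were the lowest of the group in that library. With that library left out too, an alternative chosen after seeing the data, Cd3g still fell against control (-0.64 ± 0.15, edgeR adjusted p = 0.0394) and Cd3d no longer passed (-0.56 ± 0.17, 0.0743), where 1.47% of 18887 genes were called lower and 0.937% higher.

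The same fit gave 3 members lower at day 14 than at day 7, Cd3d (-0.59 ± 0.14, adjusted p = 0.0254), Cd3g (-0.53 ± 0.14, 0.0327) and Lck (-0.38 ± 0.10, 0.0469), with Cd247 at -0.31 ± 0.09 (0.0538), while edgeR called 2.35% of all genes lower and 2.03% higher. Neither group of this contrast lost a library, so the log2 changes were nearly those of the fit to all 16, while the SEs were smaller, 0.14 against 0.19 for Cd3d. Without day 14 library 4 as well, 0 of the 9 passed between the tumour groups, with Cd3d at -0.50 ± 0.15, Cd3g at -0.45 ± 0.13 and Lck at -0.27 ± 0.09 (edgeR adjusted p = 0.107, 0.12 and 0.216), where 0.778% of all genes were called lower and 0.445% higher. In a fit of the day 7 and day 14 libraries alone, Cd3d passed but Cd3g and Lck did not (edgeR adjusted p = 0.0451, 0.0524 and 0.066). That fit called 4.18% of 17014 genes. Neutrophil markers summed to 0.80 to 38.8 CPM at day 7 and 18.8 to 1737 CPM at day 14, and in the fit to all 16 libraries 3 of the 10 were called higher at day 14 than at day 7 and 0 lower (median log2 change 1.5). Dividing cell markers summed to 177 to 677 and 372 to 1950.4 CPM, with 0 of 8 called and a median of 1.8. The part of these cells in the day 14 levels was not tested. For day 7 against controls 3 to 5, 0 of the 9 passed, as did 0% of all genes in either direction, and 0 had an unadjusted p under 0.05. Of these day 7 changes, 6 turned negative (Cd3e -0.09, Cd3d -0.03, Cd3g -0.17, Cd247 -0.01, Zap70 -0.10 and Lat -0.19), and the median of the 9 was -0.03 against 0.12 over all genes. The positive day 7 changes of Cd3e, Cd3d, Cd3g, Cd247, Zap70 and Lat above thus rested on controls 1 and 2. Those of Cd4, Lck and Lcp2 shrank to 0.07, 0.01 and 0.19 without them (edgeR adjusted p = 0.86, 0.977 and 0.469). Lat was the 1 member whose day 7 libraries all lay below controls 3 to 5, as for 2.01% of all genes, with 2.54% above. Leaving out the lowest controls favoured this separation too.

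**Figure D2:**
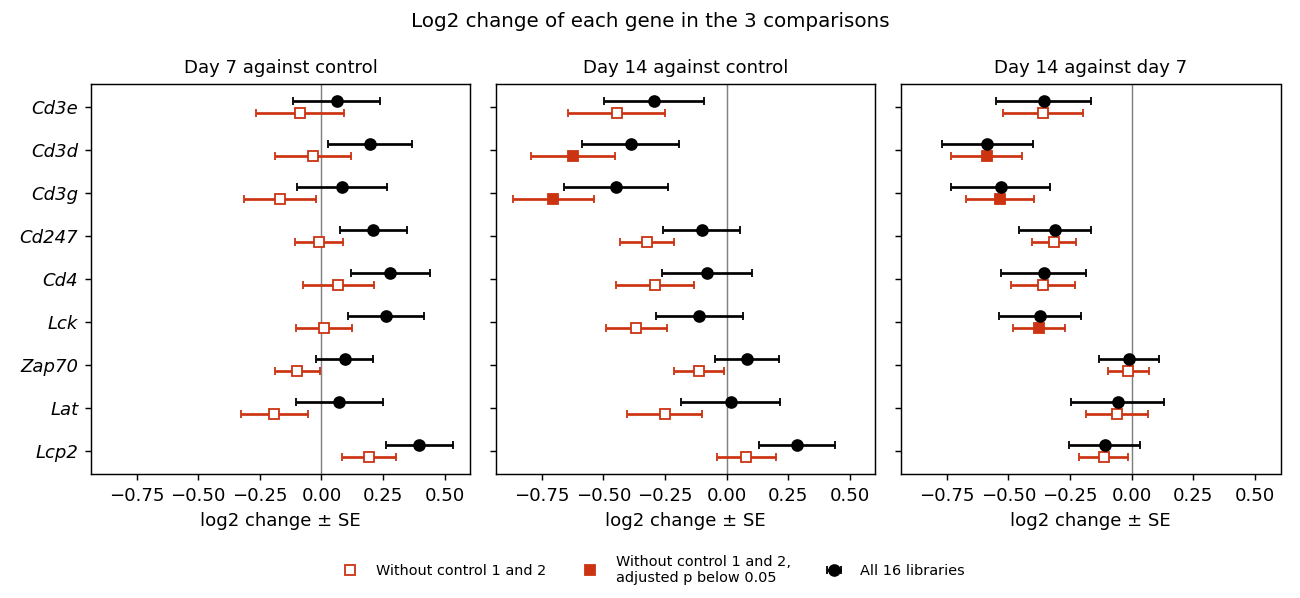
Log2 change of each gene (x axis) with its SE in the 3 comparisons, from the fit to all 16 libraries (black circles) and from the fit without control libraries 1 and 2 (red squares, filled where the adjusted p is below 0.05). The filled squares are Cd3d and Cd3g at day 14 against control, and Cd3d, Cd3g and Lck at day 14 against day 7.

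Single libraries also decided these calls. With only control 2 left out, Cd3g passed at day 14 against control (-0.61, edgeR adjusted p = 0.0363) and Cd3d at day 14 against day 7 (-0.59, 0.0414), and with only day 14 library 2 left out Cd3d passed against day 7 (-0.79, 0.0385). Day 14 library 2 had the highest CPM of the day 14 libraries for Cd3e, Cd3d, Cd3g, Cd4, Lck and Zap70. It also had the lowest share of reads outside gene models, 54.4%, against 69.8%, 66.3% and 62.3% in libraries 1, 3 and 4, and shares of 47.1% to 56.7% in controls and 54.6% to 68.0% at day 7. The mean log2 level of the 9 genes was 8.45, 8.76, 8.64 and 8.33 in day 14 libraries 1 to 4, 8.65 to 9.07 at day 7, and 8.54, 7.93, 8.89, 8.87 and 8.93 in the controls. Day 14 library 4, the lowest of its group on this mean, was also the day 14 library with neutrophil markers at 1737 CPM (18.8 to 61.1 CPM in the other 3), the highest dividing cell sum, 1950.4 CPM against 372 to 1200.0 CPM, and Y chromosome transcripts. At day 7 the library with the lowest mean, library 7, had the highest dividing cell sum, 677 CPM against 177 to 464 CPM. With the level of Y chromosome transcripts as a term in the model, Cd3d (-0.62, edgeR adjusted p = 0.0263) and Cd3g (-0.56, 0.0362) fell from day 7 to day 14, in a fit that called 2.49% of all genes lower, and 0 members passed against control. The part of the neutrophil, division and gene-share differences in these results was not tested. Reads without a unique alignment made up 8.74% to 10.1% of the control libraries and 6.67% to 7.94% of the day 7 and day 14 libraries. Gene counts were 21610411 to 27340070 in controls and 14731908 to 17067236 at day 14. These differences run with the groups, so their part in the comparisons with control cannot be told apart.

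Dividing each gene by Cd3e within the same library removes any difference that scales both genes alike. On this scale only Lcp2 separated a pair of groups, day 14 and the controls. Its log2 ratio to Cd3e was -1.65, -1.51, -1.50, -1.37 and -1.39 in controls 1 to 5, ran from -1.38 to -0.96 at day 7, and was -0.57, -1.22, -0.88 and -0.76 at day 14. All 4 day 14 libraries lay above all 5 controls, by 0.63 in the mean, where 3.23% of 12802 genes with reads in every library did the same and 0.172% lay below. With controls 1 and 2 left out the mean difference was 0.56. A ratio to Cd3e also rises where Cd3e is lower. At day 14 against control, Lcp2 changed by 0.29 and Cd3e by -0.30 with all 16 libraries. Without controls 1 and 2 these changes were 0.08 and -0.45. Day 7 overlapped the controls only through library 4. None of the other 7 ratios separated any pair of groups, in comparisons where 0.273% and 0.141% (day 7 against control) and 2.69% and 0.125% (day 14 against day 7) of the genes lay entirely above or below.

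Cd3d and Cd3g stayed within a narrower band of Cd3e than most, from -3.24 to -2.56 and from -1.95 to -1.45 over the 16 libraries, and Cd4 ran from -0.33 to 0.36. Cd247 ran from -2.22 to -1.16, Lck from -1.99 to -1.0, Zap70 from -3.11 to -1.94 and Lat from -3.41 to -1.68. For these 4, and for Lcp2, the highest ratio was that of day 14 library 1, the library with the lowest Cd3e and the largest share of reads outside gene models.

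**Figure D3:**
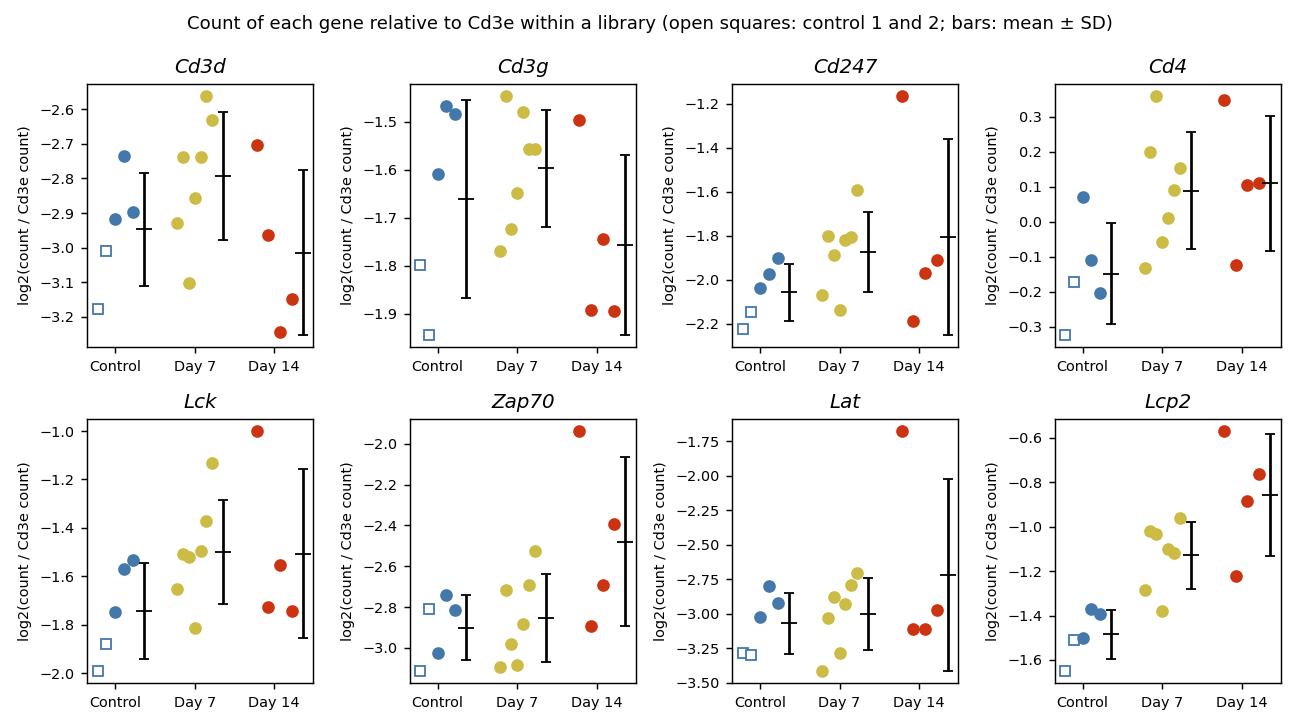
Log2 ratio of each gene's count to the Cd3e count of the same library (y axis) by group, with 1 point per library, open squares for control libraries 1 and 2, and bars for the mean ± SD. In the Lcp2 panel the 4 day 14 points, from -1.22 to -0.57, lie above all controls, and day 14 library 1 is the highest point for Lcp2, Cd247, Lck, Zap70 and Lat.

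Levels of different genes can be set side by side only per length of transcript, and the annotation leaves that length uncertain. With the exons of GENCODE's basic transcript set, Cd3e was highest with a mean over 16 libraries of 922 CPM per kb of exon, followed by Cd4 at 438, Cd3g at 422, Lck at 194, Lcp2 at 142, Lat at 139.5, Cd3d at 113, Zap70 at 86.2 and Cd247 at 77.8. Cd4 and Cd3g, next to each other in this order, were in it in 11 of 16 libraries, and Lcp2 and Lat in 9 of 16, so these neighbours did not differ beyond their spread. On this set Cd3e stood above Cd4, and Cd3g above Lck, in 16 of 16 libraries. With the exons of all transcripts, Cd3e, whose exon length is then 4080 instead of 1462 bases, came to 331 CPM per kb beside Cd4 at 338, and Cd4 was the higher of the 2 in 9 of 16 libraries. Cd3g then came to 132 CPM per kb, below Lck at 154, so that order turned as well, and Lat, at 62.8 CPM per kb, was the lowest of the 9. That the zeta and Zap70 transcripts were among the 3 least abundant members per length held under both sets.

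**Figure D4:**
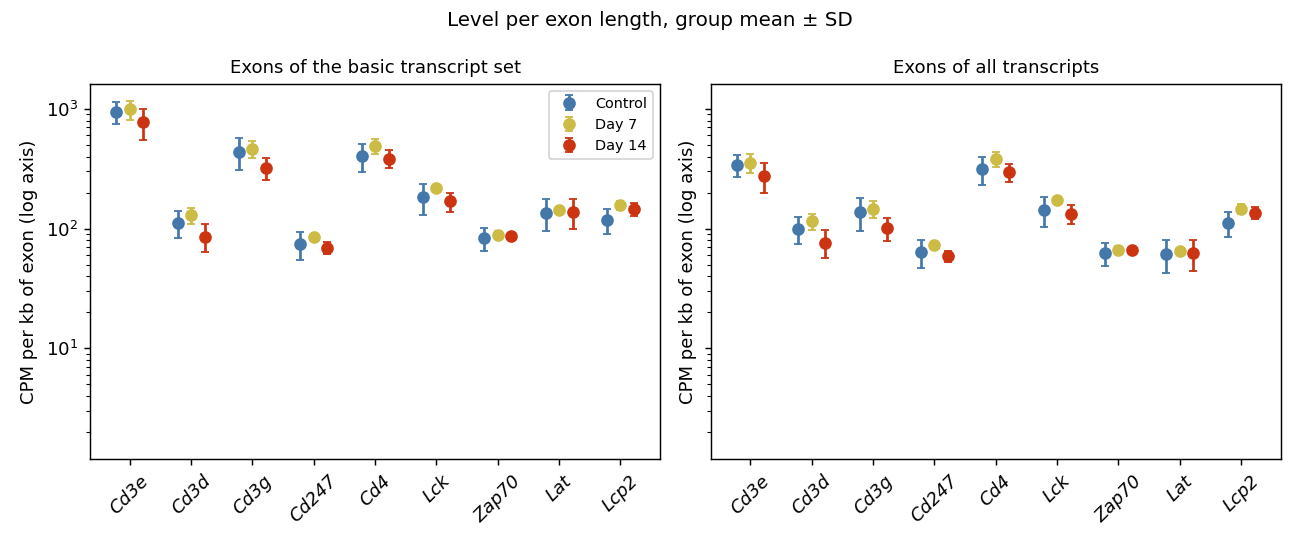
Level of each gene per kb of exon (y axis, log scale) as group mean ± SD, with the exons of the basic transcript set on the left and of all transcripts on the right. Cd3e leads on the left at 922 CPM per kb over all libraries and is level with Cd4 on the right.

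Other genes of the pathway were taken from a list of 68 in 8 roles, of which 63 were found and tested. None passed at day 7 against control in edgeR's test, where 15 were higher and 6 lower at an unadjusted p under 0.05 (8.43% and 12.7% of all genes) and DESeq2 called 4, against 12% of the genes it adjusted. At day 14, 0 rose and 3 fell against control (Ppp3ca, Ppp3r1 and Ptpn2), where 1.33% of all genes were called higher and 1.8% lower. Against day 7, 0 rose and 2 fell (Ppp3ca and Themis), where 0.412% of all genes were called higher and 0.553% lower. Under library totals edgeR called 5 higher and 1 lower against control, and 0 against day 7. Those fits called 4.34% and 1.04% of all genes, and 699 of the 799 all-gene calls against control were higher. DESeq2 called 2 higher and 4 lower against control, near its share of 7.56% over all genes it adjusted, and 0 higher and 7 lower against day 7, where that share was 5.36%. The medians of the 63 were 0.13, -0.11 and -0.19 in the 3 comparisons, beside 0.07, 0.12 and 0.12 over all genes. At an unadjusted p under 0.05, 3 were higher and 18 lower at day 14 against control (10.5% and 11.8% of all genes), and 1 higher and 22 lower against day 7 (6.54% and 8.27%).

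In the calcineurin and NFAT arm, which carries the calcium signal to the nucleus, 2 of 7 genes fell at day 14 against control, where 1.8% of all genes did. The 7 changes ran from -0.69 to 0.40 with a median of -0.02, 5 negative and 2 positive. The 2 calls thus do not describe the arm as a whole. Ppp3ca, the alpha catalytic subunit of calcineurin, went from 76.5 ± 9.51 CPM over the 5 controls and 64.6 ± 3.85 over the 7 day 7 libraries to 47.3 ± 4.29 over the 4 day 14 libraries. Its log2 change was -0.69 ± 0.11 against control and -0.45 ± 0.10 against day 7 (edgeR adjusted p = 0.00473 and 0.036), and the day 14 libraries lay below both other groups. Ppp3r1, the regulatory subunit, had 87.6 ± 3.19, 68.4 ± 5.83 and 63.1 ± 3.15 CPM, a change of -0.47 ± 0.09 at day 14 against control (adjusted p = 0.014) and -0.36 ± 0.08 at day 7 (0.0709). Its libraries lay below the controls at both times. The Ppp3ca call against control held without each single library and without controls 1 and 2 (-0.64, adjusted p = 0.0105), but in a fit of those 2 groups alone the adjusted p was 0.0661. Without controls 1 and 2, Ppp3r1 changed by -0.49 at day 14 (adjusted p = 0.0181) and -0.37 at day 7 (0.285). Its day 14 call was lost with library totals, the 2 groups alone and a replicate block (edgeR adjusted p = 0.105, 0.0903 and 0.0721). The Ppp3ca call against day 7 was lost with library totals and the block (0.176 and 0.128).

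Among the other adaptors all 11 had negative changes at day 14 in both comparisons under TMM, with medians of -0.26 against control and -0.29 against day 7, and 1 passed. Over all genes, 7792 and 7482 of 18430 changes were negative. The adaptors' changes reached up to -0.03 and -0.13. Library totals moved the all-gene medians from 0.12 in both comparisons to 0.32 and 0.29, so the smaller of these signs can depend on the scaling. Themis, an adaptor that binds Grb2, had 215 ± 60.5, 275 ± 29.2 and 162 ± 26.2 CPM, and fell from day 7 to day 14 by 0.76 ± 0.17 on the log2 scale (edgeR adjusted p = 0.0418). Of the 18 phosphatases and inhibitors, the phosphatase gene Ptpn2 fell at day 14 against control, from 121 ± 12.8 to 85.0 ± 22 CPM (-0.51 ± 0.13, adjusted p = 0.0485). That call was lost without controls 1 and 2 (-0.50, edgeR adjusted p = 0.0618), and the adjusted p was 0.0376 to 0.184 over the other alternatives run in edgeR that kept every library of both groups, and 0.0195 in DESeq2. The Ptpn2 call was lost in 13 of the 16 fits that left out 1 library, that of Themis in 12, that of Ppp3ca against day 7 in 11 and that of Ppp3r1 in 6, with adjusted p-values of up to 0.218, 0.192, 0.12 and 0.109.

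Among roles with no called gene, the most abundant gene was Cd2 among the co-receptors (6 genes), Rasgrp1 among the second messenger and Ras enzymes (11) and Prkcq in the PKC-theta arm (4). Cd2, an adhesion receptor, changed by -0.41 ± 0.12 at day 14 against control (edgeR adjusted p = 0.0581), and without controls 1 and 2 it fell by 0.48 on the log2 scale (adjusted p = 0.0378). Rasgrp1, the exchange factor that activates Ras, changed by -0.70 ± 0.19 and Prkcq, protein kinase C theta, by -0.36 ± 0.14 against day 7 (adjusted p = 0.0801 and 0.225). Without controls 1 and 2, edgeR called 11 of the 63 lower and 0 higher at day 14 against control, and 15 lower and 0 higher against day 7, where the same fit called 2.54% and 2.35% of all genes lower and 2.38% and 2.03% higher. With day 14 library 4 left out too, these were 8 and 7 lower and 0 higher, beside 1.47% and 0.778% of all genes lower. Rasgrp1 (-0.52 and -0.70) and Themis (-0.64 and -0.77) were among those in both counts. Their adjusted p-values were 0.04 and 0.0142 relative to control and 0.00359 and 0.00158 relative to day 7, and without day 14 library 4 they were 0.0646 and 0.0258, and 0.00861 and 0.00422.

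**Figure D5:**
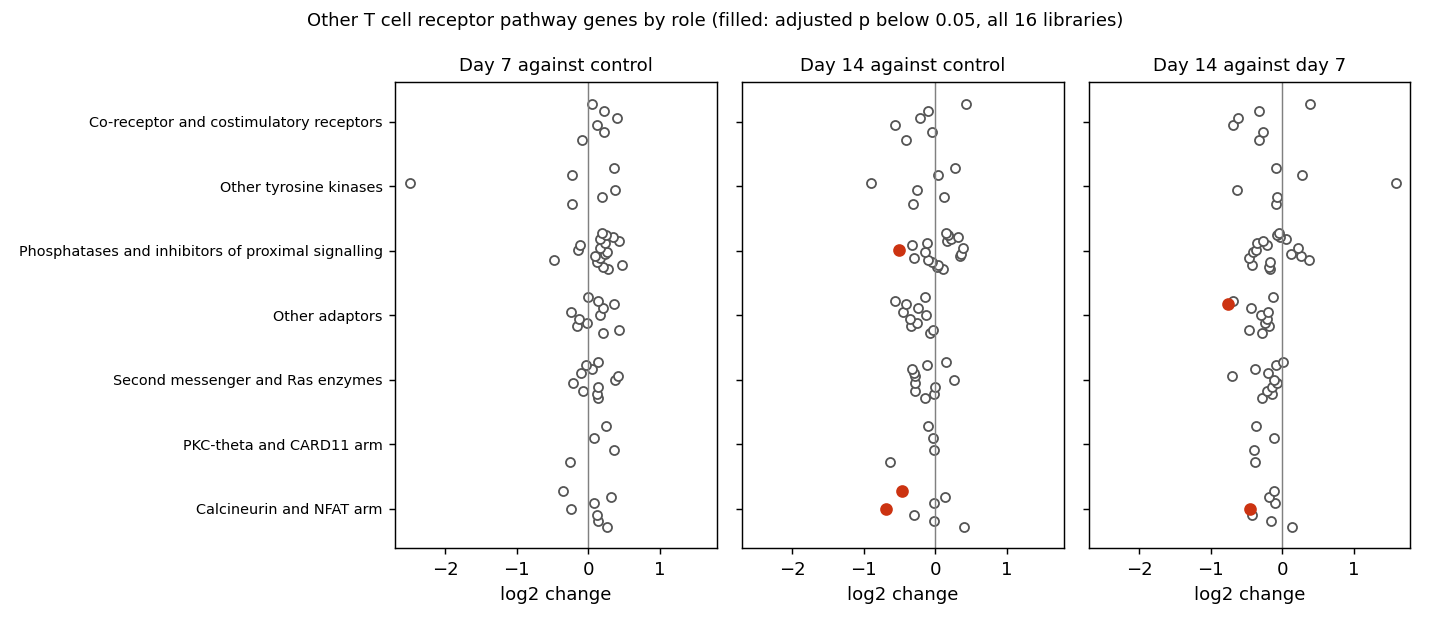
Log2 change (x axis) of the 63 other pathway genes by role in the 3 comparisons with all 16 libraries, with 1 point per gene, filled where the adjusted p is below 0.05. The filled points are Ptpn2, Ppp3ca and Ppp3r1 at day 14 against control and Ppp3ca and Themis at day 14 against day 7, all lower.

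The 9 genes varied together across libraries to unequal degrees, given here as a description over 16 libraries that share groups and composition. The closest pairs in log2 level were Cd247 with Lck (Pearson r = 0.96, and 0.92 without controls 1 and 2), Cd3d with Cd3g (0.94 and 0.93) and Cd3e with Cd3g (0.91 and 0.90). Lat with Lcp2, whose proteins work in 1 complex, had 0.56 with all libraries and -0.38 without controls 1 and 2. Zap70 with Lcp2 likewise went from 0.80 to 0.07, and Cd4 with Zap70 from 0.63 to 0.11. Pairs within the chromosome 9 cluster thus kept their values without those libraries, but so did several pairs across chromosomes. Cd3d with Lck had 0.86 and 0.87, Cd3e with Cd4 0.84 and 0.86, and Cd3g with Cd247 0.87 and 0.86. The pairs with Lat or Zap70 named above did not keep theirs.

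Among 8431 genes averaging 10 CPM or more, those most like the mean of the 9 were Card6 (r = 0.97 over 16 libraries, 0.95 without controls 1 and 2), Dlgap4 (0.97 and 0.94), Ablim1 (0.97 and 0.94), Slain1 (0.97 and 0.93), Laptm5 (0.97 and 0.94), Leprotl1 (0.96 and 0.94), H2-M3 (0.96 and 0.92) and Tmem71 (0.95 and 0.90). By single member, given for 8 of the 9, the most alike were Ly9 for Cd3e (0.95 and 0.97), Sept6 for Cd3d (0.97 and 0.96), Card6 for Cd247 (0.97 and 0.95) and Fyb for Cd4 (0.94 and 0.91). For the kinases and adaptors they were Prkcq for Lck (0.98 and 0.96), Ephx1 for Zap70 (0.93 and 0.69), Acp5 for Lat (0.90 and 0.85) and Cbl for Lcp2 (0.95 and 0.80). Prkcq, Fyb and Cbl belong to the pathway list itself. The values for Zap70 and Lcp2 depended most on controls 1 and 2.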

How the data were processed

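RNA was sequenced from 16 libraries of mouse splenic CD4 T cells, prepared from total RNA with a NuGEN kit per the labels' protocols. The authors deposited raw whole-number read counts for 23479 genes. Per the submitters' processing notes, the build was mm10 and HTSeq 0.6.1, cutadapt 1.8.1 and bcl2fastq 2.20.0.422 were used. The aligner, gene annotation and strand setting are not given in the sources used here, so reads of overlapping genes cannot be told apart. Rows that name no gene stayed out of library sizes and tests, and reads outside gene models made up 47.1% to 69.8% of a library. No columns were identical.

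Counts were fitted with edgeR 4.0.16 (R 4.3.3, limma 3.58.1) over all 16 libraries: TMM scaling, filterByExpr by group (5049 genes removed), quasi-likelihood tests, and Benjamini-Hochberg adjustment over 18430 genes at 0.05. The SE of a log2 change is its size over the square root of the F statistic. The common biological coefficient of variation was 54.5%. On simulated counts the test recovered 79%, 64% and 75% of 2-fold changes for day 7 against control, day 14 against control and day 14 against day 7, on 17266, 17136 and 17206 genes, with 7, 5 and 7 false calls. The members' log2 changes ran from -0.59 to 0.40, short of 2-fold, so these rates do not give the recovery of changes that small. Alternatives were other scalings and filters, DESeq2 1.42.0, fits of 2 groups, a replicate block, a Y chromosome term, and leaving out libraries. The exon set for lengths, the ratios without controls 1 and 2, and the fit without these and day 14 library 4 were added after seeing the data. Replicate numbers of different mice did not pair the libraries. Correlations used log2(CPM + 1) and a minimum mean of 10 CPM. Positions and exon lengths are from GENCODE's annotation of GRCm38, and promoter windows from RefSeq. Figures used Python 3.11.15 and Matplotlib 3.10.9.

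The members, the lists and the naming rule were chosen with earlier results of these data known. All members are named. Pathway genes are named where called, otherwise the most abundant of the role, and the 8 most similar genes, with the most similar to each member; 2 genes that the rule picks are not reported here.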

Additional observations from a re-analysis of the deposited data

Results flagged for a closer look

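Cd3e in control library 2 stood apart from the other 4 controls, at 880.4 CPM with the nearest at 1435 CPM. That gap was 0.772 of the group's whole range, above the limit of 0.71 for 5 samples. It was the only one of 27 sets of libraries tested (9 genes in 3 groups) to pass this limit, and chance passes about 1 in 20. The other 8 genes were also lowest among the controls in this library, with control 1 between it and the rest. Neutrophil, macrophage and dividing cell markers were highest in the same library, and their part in the value was not tested.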

How the results depend on the processing

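Directions and calls were recomputed under each alternative, and calls are counted with edgeR unless DESeq2 is named. Over all genes, day 14 against control gave 577 calls, 381 with no filter on low counts, 1564 with DESeq2, 4 in a fit of the 2 groups, 942 without controls 1 and 2, and 65 to 1458 when 1 library was left out. Of these 577 calls 246 were higher, against 699 of 799 with library totals and 289 of 539 with RLE scaling. Day 14 against day 7 gave 178 calls, 681 with DESeq2, 712 with the 2 groups, 838 without controls 1 and 2, 1000 with the Y chromosome term and 25 to 531 with 1 library left out. Day 7 against control gave 2 calls, 1575 with DESeq2, 4 with the 2 groups, 0 without controls 1 and 2, 649 with the Y chromosome term and 0 to 1455 with 1 library left out.

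Of the 9 members, 0 were called in the main fit of any comparison. Day 7 against control gave 1 with DESeq2 and 0 whichever library was left out. Day 14 against control gave 2 without controls 1 and 2 and 0 to 1 with 1 library left out. Day 14 against day 7 gave 1 with DESeq2, 1 with the 2 groups, 3 without controls 1 and 2, 2 with the Y chromosome term and 0 to 1 with 1 library left out. Of the 63 pathway genes, day 14 against control gave 3 calls, all lower, and 6 with library totals, of which 5 were higher and 1 lower. These 63 genes gave 6 with DESeq2, 0 with the 2 groups, 11 without controls 1 and 2 and 1 to 7 with 1 library left out. Against day 7 they gave 2 calls, 1 with RLE scaling, 0 with library totals, 1 with a filter of at least 1 CPM in 4 libraries, 7 with DESeq2, 15 with the 2 groups, 15 without controls 1 and 2, 12 with the Y chromosome term and 0 to 9 with 1 library left out. At day 7 they gave 0 calls, 4 with DESeq2, 5 with the Y chromosome term and 0 to 6 with 1 library left out.

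Signs turned as follows. Day 14 against control, Prkcq was 0.10 with library totals, Lat was -0.25 and Zap70 -0.11 without controls 1 and 2, and Lat was -0.036 with the Y chromosome term. Day 14 against day 7, Ppp3r1 was 0.048 with library totals, and Zap70 was 0.030 with RLE scaling, 0.15 with library totals, 0.030 with DESeq2 and 0.0041 with the 1 CPM filter. With library totals Cd247, Cd4 and Lck were 0.11, 0.12 and 0.093 against control, and Lat and Lcp2 0.11 and 0.048 against day 7. Without controls 1 and 2 the day 7 changes of Cd247, Cd3d, Cd3e, Cd3g, Lat and Zap70 were -0.0092, -0.034, -0.087, -0.17, -0.19 and -0.097. With 1 library left out the ranges that crossed 0 were, at day 7, Cd2 -0.12 to 0.017, Cd3e -0.064 to 0.16, Cd3g -0.083 to 0.17, Lat -0.088 to 0.18 and Zap70 -0.018 to 0.19. At day 14 against control they were Cd4 -0.21 to 0.086, Lat -0.19 to 0.14 and Zap70 -0.028 to 0.18, and against day 7 Lat -0.28 to 0.058 and Zap70 -0.059 to 0.017. Without controls 1 and 2 and day 14 library 4, all genes gave 454 and 231 calls at day 14 against control and against day 7 and 0 at day 7, the members 1, 0 and 0, and the pathway genes 8, 7 and 0. The signs that turned there were Lat and Zap70 at day 14 against control (-0.15 and -0.11) and against day 7 (0.064 and 0.0045), and at day 7 Cd247, Cd3d, Cd3e, Cd3g, Lat, Zap70 and Lck (-0.030, -0.054, -0.11, -0.19, -0.21, -0.12 and -0.0086). The cause was not tested for any of these. Depth limited little: counting error was at most 2.32% for any member in any library.

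Replicate numbers did not pair the libraries: of 13 same-numbered pairs, 3 had correlated deviations above 0.1 (range -0.34 to 0.30), and 1 of 16 libraries matched its own number best. With the replicate block, all genes gave 35, 46 and 28 calls at day 7, at day 14 and between the tumour groups, the members 0 in each, and the pathway genes 0, 1 and 0. Zap70 at day 14 against day 7 was then 0.0053.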
